A study of Mus musculus with 12 samples.

Results

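The doxycycline (dox) responses of mouse embryonic fibroblasts were compared between cells depleted of Myc and cells depleted of Gcn5. The quantity followed was a difference of differences: the change from no dox to dox in cells given an siRNA against c-Myc (siMyc), minus the same change in cells given an siRNA against Gcn5 (siGcn5). All 8 libraries of these siRNAs were used of 12 in the series, and 13003 of 23284 genes were expressed highly enough to be tested. The cells were secondary 1B fibroblasts (written 2o 1B MEFs in the labels), cells of a kind known to carry reprogramming factors that dox switches on (the labels do not name the factors). They formed 4 groups of 2 libraries: siMyc without dox, siMyc with 2 days of dox, siGcn5 without dox and siGcn5 with 2 days of dox. Every group was transfected with a knockdown siRNA, so no group in the comparison was an untreated reference. Cells with and without dox were both kept in embryonic stem cell medium, per the labels' protocols, and the labels tie neither the pooled nor the individual siRNAs to these libraries.

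Myc is a transcription factor that pairs with Max and binds DNA, and it is known for driving genes of ribosome production, nucleotide synthesis and cell division. Gcn5, encoded by Kat2a, is the histone acetyltransferase of the SAGA and ATAC coactivator complexes, which activators such as Myc can recruit. In the first days of reprogramming, fibroblasts are known to lose mesenchymal genes and to gain epithelial ones, before the endogenous pluripotency genes come on.

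Levels below are RPKM (reads per kilobase of transcript, scaled to library size) for replicates 1 and 2 of a group. Responses and differences were taken on log2(RPKM + 1), so that changes of genes with low values are understated. A positive difference means that dox raised a gene more, or lowered it less, in siMyc than in siGcn5. Adjusted p-values are from limma (two-sided, Benjamini-Hochberg over all 13003 genes), a gene was called at an adjusted p under 0.05, and each standard error (SE) rests on 2 libraries a group. The labels do not say whether replicates were separate cultures, and the spread that the p-values measure may therefore be technical. Reads assigned to genes ran from 65.5 to 188 M per library, and replicates correlated at a Spearman rho of 0.990 to 0.996 across genes. A single library is written below as its group and replicate number, such as siMyc dox 1 or siGcn5 no-dox 2. The 8 libraries separated by dox and by siRNA on the first principal components (50.2% and 37.5% of the variance).

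Both knockdowns responded to dox, in part with the same genes, and for some genes to a different degree. In siMyc 40.2% of genes tested were called for dox (26.1% up and 14.1% down), and in siGcn5 53.6% (33.2% up and 20.4% down). These splits depend on scaling: under median-ratio scaling 52.7% of the siMyc calls and 51.3% of the siGcn5 calls were up, against 64.9% and 62.0% with the values as deposited. Quantile normalization gave 40.9% and 42.6%, and moved the median siMyc response of all genes from 0.08 to -0.08 and the siGcn5 one from 0.07 to -0.08. Of 3394 genes called in both, 3113 (91.7%) went the same way, and the responses, which share no library, correlated across genes at a Pearson r of 0.67. The responses differed between the knockdowns for 3726 genes, or 28.7% of those tested: 1993 were higher in siMyc (15.3%) and 1733 lower (13.3%), around a median over all genes of -0.01. The share of these calls that were higher, 53.5%, was 54.9% under median-ratio scaling and 51.5% under quantile normalization. Without siMyc dox 1 1967 genes were called, without siMyc no-dox 1 2261, without siMyc no-dox 2 2131 and without siGcn5 no-dox 1 2197. In all 3726 the responses computed from single libraries did not overlap. With 2 libraries a group this follows from the call itself and is no separate support for it. The plot of both responses shows the called genes as bands on each side of the line of equal response.

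**Figure D1:**
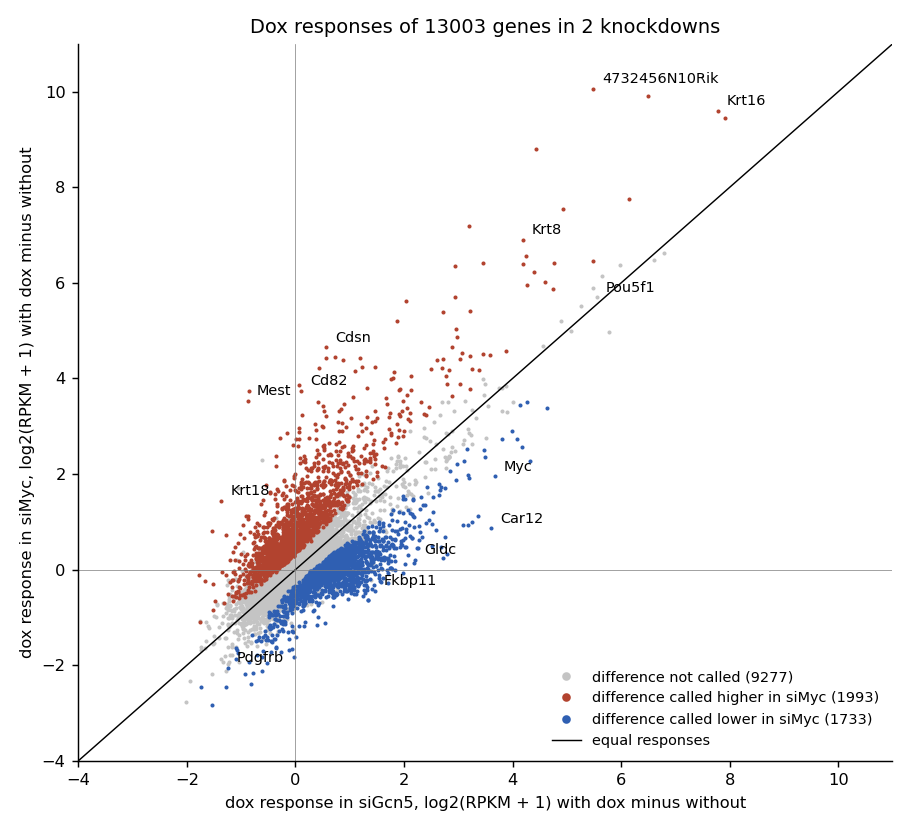
Dox response of each of the 13003 genes tested in siGcn5 (x axis) and in siMyc (y axis), as the mean log2(RPKM + 1) of 2 libraries with dox minus that of 2 without. Red points are the 1993 genes whose response was called higher in siMyc, blue points the 1733 called lower, grey points the rest, and the black line marks equal responses. Mest and Krt18 sit left of 0 and above it, and 4732456N10Rik and Krt16 lie far up in both responses.

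Most of the 1733 lower genes were genes that dox raised in siGcn5. Of these, 1060 (61.2%) rose in siGcn5 and were not called in siMyc, and 320 (18.5%) rose in both. Another 212 (12.2%) fell in siMyc and were not called in siGcn5. The 1993 higher genes were more mixed: 723 (36.3%) rose in siMyc and were not called in siGcn5, 511 (25.6%) rose in both, and 456 (22.9%) fell in siGcn5 and were not called in siMyc. Dox responses in opposite directions were called for 223 of the higher genes (1.71% of genes tested) and 58 of the lower (0.446%).

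A difference in response can be present at the start, at the end or at both. Without dox 55.5% of genes differed between siMyc and siGcn5 (21% higher in siMyc and 34.5% lower), and with dox 63.5% (26.4% higher and 37% lower). Under median-ratio scaling 51.0% of the calls without dox and 52.1% of those with dox were higher in siMyc, against 37.9% and 41.6% with the values as deposited. Of the 1733 lower genes, 680 (39.2%) did not differ by the test without dox and were lower in siMyc with dox. Another 454 (26.2%) were lower in siMyc both without and with dox. A further 400 (23.1%) were higher in siMyc without dox and did not differ by the test with it. Of the 1993 higher genes, 861 (43.2%) were called only with dox, where they were higher, and 411 (20.6%) were lower in siMyc without dox and not called with it. In siMyc 332 (16.7%) were higher both without and with dox, and 254 (12.7%) were lower without dox and higher with it.

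The targeted genes were each lower in their own knockdown. Kat2a measured 17.6 and 16.5 RPKM in siMyc without dox and 18.1 and 19.4 with it, against 1.33 and 1.97 without dox and 6.27 and 9.11 with it in siGcn5. It was lower in both siGcn5 groups than in either siMyc group, and within siGcn5 it was higher with dox, by 1.70. The siMyc response of 0.13 was not called, and the difference was -1.57 (SE 0.24, adjusted p = 0.00328). Myc measured 4.57 and 4.80 RPKM in siMyc without dox and 16.9 and 26.2 with it, against 9.31 and 7.10 without dox and 103 and 129 with it in siGcn5. It rose in both knockdowns, by 1.96 in siMyc and 3.67 in siGcn5, a difference of -1.71 (SE 0.29, adjusted p = 0.00491). Reads of the endogenous gene and of an introduced copy cannot be told apart in these values.

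Other genes known as reprogramming factors were not called for the difference. Pou5f1 (Oct4) measured 1.05 and 1.20 RPKM in siMyc without dox and 97.9 and 122 with it, against 2.53 and 2.58 without dox and 137 and 200.2 with it in siGcn5, and its responses of 5.70 and 5.55 differed by 0.14 (SE 0.24, adjusted p = 0.69). Sox2 rose by 3.80 and 3.75, with a difference of 0.05 (SE 0.34, adjusted p = 0.926), and Klf4 by 2.95 and 3.18, with a difference of -0.23 (SE 0.22, adjusted p = 0.465). As for Myc, reads of the endogenous genes and of any introduced copies cannot be told apart. All 3 factors rose in both knockdowns. A p that misses the threshold does not show that their responses were equal.

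Mir335 had the largest positive difference of the 13003 genes. It lies within Mest, an imprinted gene of mesodermal tissue. Both mature products of Mir335 are shown because the entry carries their name, each with the seed (bases 2 to 8, which pair with targets) in capitals, from RefSeq on GRCm38.p6.
mmu-miR-335-5p: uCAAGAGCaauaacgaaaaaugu
mmu-miR-335-3p: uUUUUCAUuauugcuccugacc
The former is at chr6:30741314-30741336 and the latter at chr6:30741354-30741375, both on the plus strand. Mir335 measured 5.61 and 5.56 RPKM in siMyc without dox and 87.6 and 86.5 with it, against 58.9 and 57.4 without dox and 27.0 and 36.7 with it in siGcn5, a difference of 4.60 (SE 0.18, adjusted p = 1.32e-05). Mest measured 6.80 and 6.42 RPKM in siMyc without dox and 83.6 and 91.2 with it, against 62.0 and 64.4 without dox and 29.1 and 39.5 with it in siGcn5, a difference of 4.41 (SE 0.18, adjusted p = 1.5e-05). For both genes siMyc without dox was the low group, and dox raised siMyc while it lowered siGcn5. The values of Mir335 follow those of its host, and in libraries of total RNA reads of the miRNA cannot be told apart from reads of the Mest transcript.

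Among the other largest positive differences, several genes were near 0 without dox in both knockdowns and came on more strongly in siMyc. 4732456N10Rik measured 0 and 0 RPKM in siMyc without dox and 1102 and 1042 with it, against 0 and 0 without dox and 40.2 and 47.8 with it in siGcn5, a difference of 4.58 (SE 0.14, adjusted p = 8.4e-06). Bglap2, a copy of the osteocalcin gene, measured 0.176 and 0.196 RPKM in siMyc without dox and 542 and 512 with it, against 0.308 and 0 without dox and 21.4 and 26.3 with it in siGcn5, a difference of 4.36 (SE 0.20, adjusted p = 1.82e-05). Its near-identical neighbour Bglap measured 0.133 and 0.0985 RPKM in siMyc without dox and 165 and 161 with it, against 0.0776 and 0 without dox and 7.79 and 9.42 with it in siGcn5, a difference of 3.99 (SE 0.15, adjusted p = 1.32e-05), and reads could have been split between these copies in counting. All 3 genes rose in both knockdowns, and siMyc with dox was the high group by a wide margin. For Bglap2 and Bglap the call ended when recovered reads were tested with limma voom (adjusted p = 0.0938 and 0.107), where values near 0 carry less weight.

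Others came on in siMyc and stayed low, or near their starting level, in siGcn5. Notum, a secreted enzyme that inactivates Wnt proteins, measured 0.212 and 0.145 RPKM in siMyc without dox and 23.0 and 25.6 with it, against 0.228 and 0.109 without dox and 0.853 and 0.594 with it in siGcn5, a difference of 3.86 (SE 0.16, adjusted p = 1.5e-05). Fgf3, a fibroblast growth factor, measured 0.0107 and 0 RPKM in siMyc without dox and 21.8 and 20.5 with it, against 0 and 0 without dox and 0.495 and 0.860 with it in siGcn5, a difference of 3.72 (SE 0.16, adjusted p = 1.69e-05). Cd82, a tetraspanin of the cell surface, measured 9.22 and 10.6 RPKM in siMyc without dox and 137 and 152 with it, against 10.5 and 11.3 without dox and 11.2 and 12.5 with it in siGcn5, a difference of 3.63 (SE 0.14, adjusted p = 1.32e-05). Only the siMyc libraries with dox stood apart for Cd82, and its response was not called in siGcn5. Notum and Fgf3 reached 1 RPKM only in siMyc with dox. They entered the test through that group, which favours a call as higher. Gpr133 at 3.79, Ccdc114 at 3.78 and the tetraspanin gene Tspan15 at 3.57 were also highest in siMyc with dox.

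Dox moved some genes in opposite directions. Krt18, a keratin of simple epithelia, measured 5.63 and 6.39 RPKM in siMyc without dox and 17.9 and 18.2 with it, against 36.7 and 31.6 without dox and 14.1 and 11.2 with it in siGcn5, a difference of 2.81 (SE 0.18, adjusted p = 6.53e-05). Igfbp3, which binds insulin-like growth factors, measured 32.2 and 24.5 RPKM in siMyc without dox and 49.4 and 50.3 with it, against 85.6 and 70.3 without dox and 27.9 and 24.0 with it in siGcn5, a difference of 2.35 (SE 0.20, adjusted p = 0.000275). Socs3, an inhibitor of cytokine signalling, measured 8.82 and 7.33 RPKM in siMyc without dox and 29.6 and 24.5 with it, against 12.7 and 10.7 without dox and 8.72 and 7.67 with it in siGcn5, a difference of 2.09 (SE 0.19, adjusted p = 0.000332). In each of these the siGcn5 libraries were the higher ones without dox and the lower ones with it. 4632428N05Rik followed with a difference of 2.30. In the reverse direction Fkbp11, a folding enzyme of the endoplasmic reticulum, measured 32.8 and 28.2 RPKM in siMyc without dox and 21.1 and 23.2 with it, against 36.8 and 38.8 without dox and 98.1 and 115 with it in siGcn5, a difference of -1.91 (SE 0.15, adjusted p = 0.000189). Gsto1, a glutathione transferase, measured 466 and 478 RPKM in siMyc without dox and 329 and 339 with it, against 197 and 249.8 without dox and 501 and 581 with it in siGcn5, a difference of -1.78 (SE 0.17, adjusted p = 0.000469). These fell in siMyc and rose in siGcn5, as did Krt20 (-1.80), Gstm1 (-1.71), Prkg2 (-1.66) and Emb (-1.58).

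The largest negative differences were smaller than the largest positive ones, and most were genes with low values that came on in siGcn5 with dox. Car12, a carbonic anhydrase of the cell surface, measured 0.401 and 0.668 RPKM in siMyc without dox and 0.981 and 2.95 with it, against 1.32 and 1.42 without dox and 25.8 and 30.2 with it in siGcn5, a difference of -2.74 (SE 0.39, adjusted p = 0.00246). Tdh, the threonine dehydrogenase known for its use by mouse embryonic stem cells, measured 0 and 0 RPKM in siMyc without dox and 0.251 and 0.271 with it, against 0 and 0.00615 without dox and 5.74 and 6.10 with it in siGcn5, a difference of -2.45 (SE 0.11, adjusted p = 1.82e-05). Echdc2 measured 5.38 and 6.54 RPKM in siMyc without dox and 4.98 and 6.25 with it, against 7.08 and 6.20 without dox and 29.7 and 28.4 with it in siGcn5, a difference of -2.05 (SE 0.18, adjusted p = 0.000287). Tdh and Car12 rose in both knockdowns by the test, and Echdc2 in siGcn5 while its siMyc libraries with and without dox overlapped. Tdh entered the test through siGcn5 with dox alone, which favours a call as lower. The others by rank were 4933402E13Rik (-2.47), Ces2g (-2.27), Ccnb1ip1 (-2.25), Anxa10 (-2.23), Slc47a1 (-2.20), Smpdl3b (-2.16), Moxd1 (-2.07), Sprr1b (-2.05) and Aadac (-2.04). Of these, Ccnb1ip1, Anxa10, Smpdl3b and Sprr1b lost the call under limma voom (adjusted p = 0.273, 0.0788, 0.12 and 0.332).

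**Figure D2:**
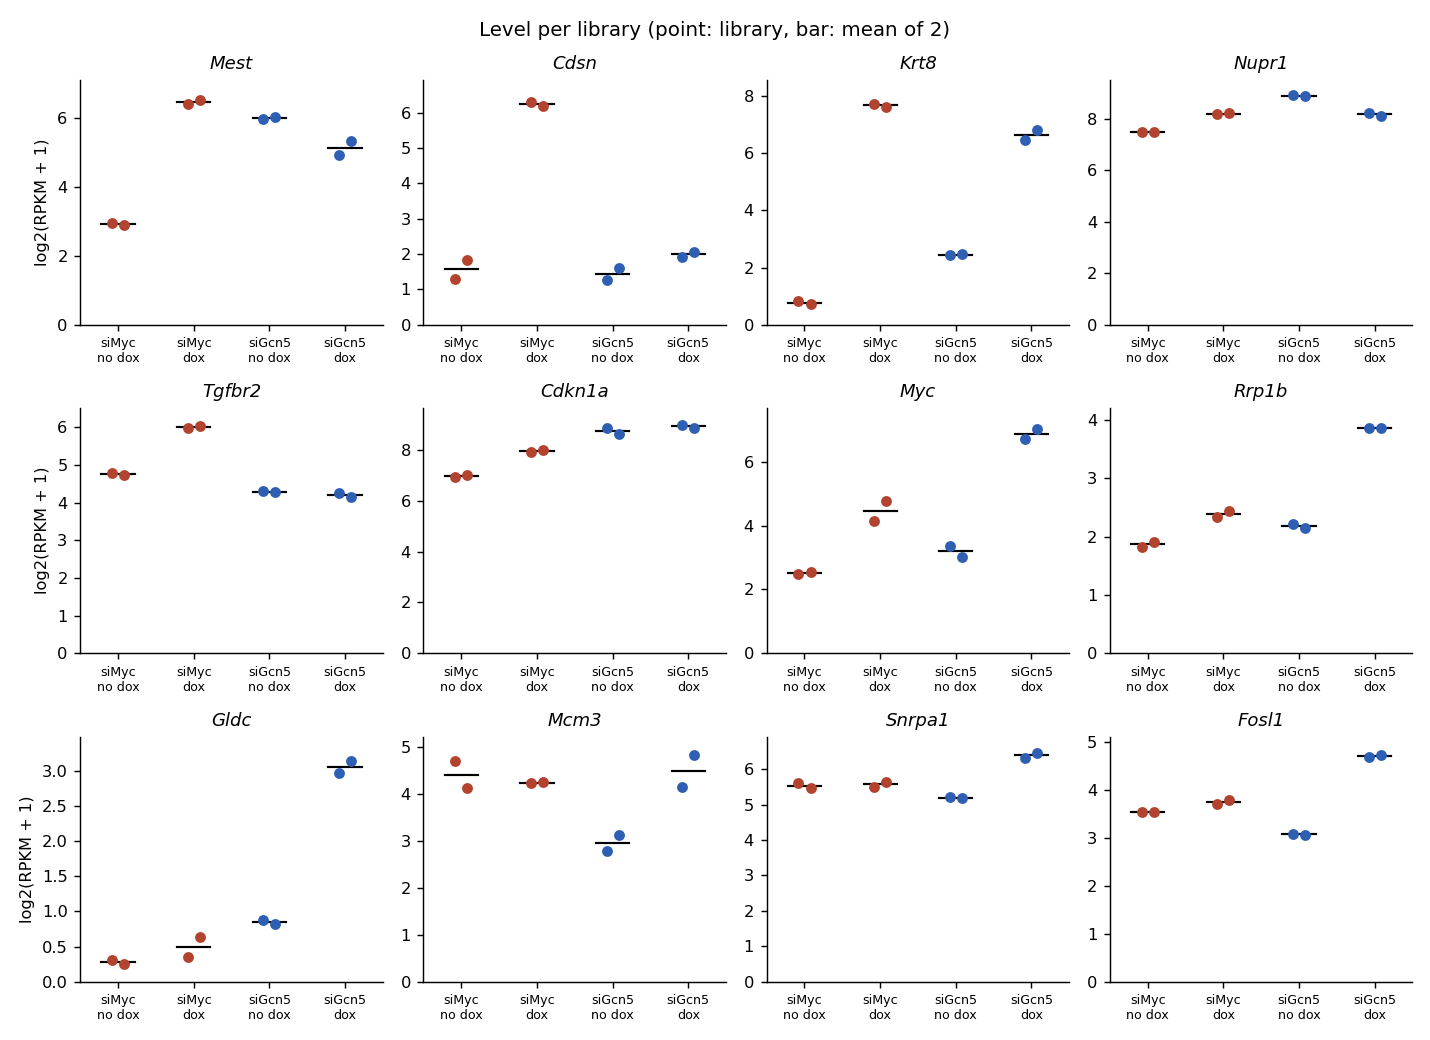
Level of 12 named genes in each of the 8 libraries, as log2(RPKM + 1) on axes that start at 0. Points are single libraries (red siMyc, blue siGcn5) and bars are group means. Mest, Cdsn, Krt8, Nupr1, Tgfbr2 and Cdkn1a rose more (or fell less) with dox in siMyc. Myc, Rrp1b, Gldc, Mcm3, Snrpa1 and Fosl1 rose more in siGcn5.

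Lists of genes by function were described by their counts of called members and their median. Of all genes tested 15.3% were higher and 13.3% lower, with a median of -0.01. Where the shares of a list lie near these, its count does not set it apart. The plot of list members shows the lists in the order of their medians. The most negative medians were those of mitosis, DNA replication, purine, pyrimidine and polyamine, chemokine, serine and ribosome biogenesis genes, and the most positive those of the 3 epithelial lists. Medians close to 0 moved by much of their own size when single libraries were left out.

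**Figure D3:**
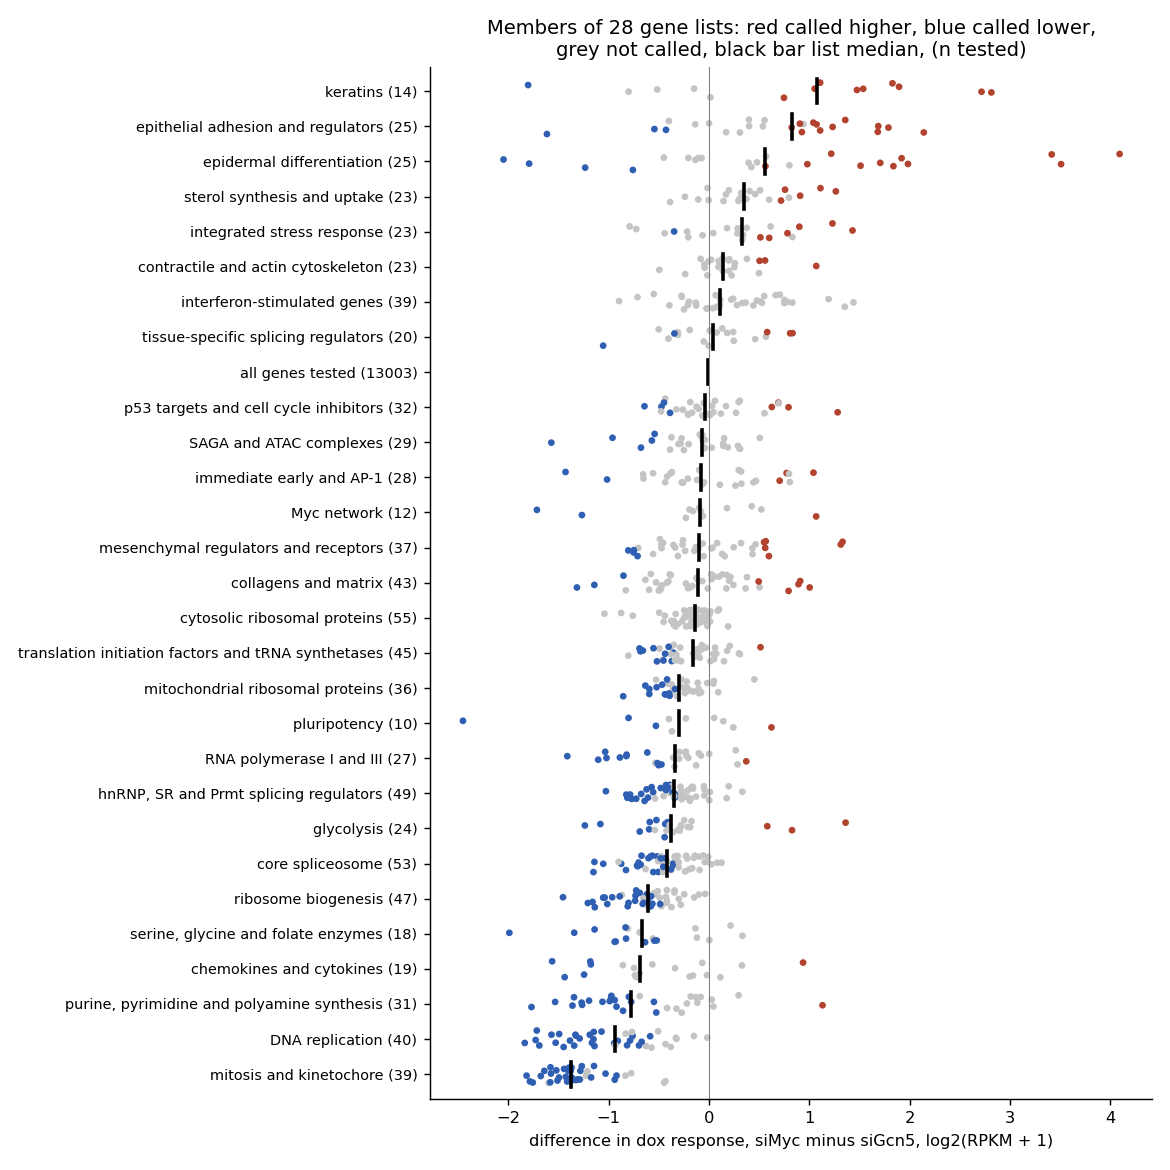
Difference in dox response (siMyc minus siGcn5, log2(RPKM + 1)) of every tested member of 28 gene lists, with the number tested in brackets. Red points were called higher, blue points lower and grey points not called, black bars are list medians, and for all genes tested only the median is drawn. Medians run from -1.37 for mitosis and kinetochore genes to 1.08 for keratins.

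Genes of ribosome biogenesis, which process and assemble ribosomal RNA in the nucleolus, rose with dox in siGcn5, and in siMyc fewer of them rose. Of 47 tested, 29 were called up in siMyc and 47 in siGcn5, with median responses of 0.40 and 1.03. The siMyc count was 6 without siMyc dox 2 (median 0.23), 8 without siMyc no-dox 2 and 11 without siMyc no-dox 1, and 13 under median-ratio scaling and 11 under quantile normalization, while the siGcn5 count was 45 or more in each. The difference was called lower for 26 and higher for 0, and all 47 had a value below 0, with a median of -0.61. Without limma's adjustment 35 were lower and 0 higher at a p under 0.05, and limma voom called 24 lower and 0 higher. Most were already lower in siMyc before dox (41 of 47), and 46 were lower after it. The number called lower fell to 11 without siMyc no-dox 2, 12 without siMyc dox 1, 13 without siGcn5 no-dox 1, 14 without siGcn5 dox 2 and 16 without siMyc no-dox 1, and was 35 without siGcn5 dox 1.

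Rrp1b, a nucleolar processing factor, measured 2.53 and 2.77 RPKM in siMyc without dox and 4.02 and 4.43 with it, against 3.65 and 3.43 without dox and 13.5 and 13.5 with it in siGcn5, a difference of -1.16 (SE 0.13, adjusted p = 0.000803). Its siGcn5 libraries with dox stood at the same level and above all others. Lyar, Ncl (nucleolin) and Nhp2 (a subunit of the RNA pseudouridylation complex) had differences of -1.45, -1.21 and -1.14. Lyar lost the call without siMyc no-dox 2 or siGcn5 no-dox 1 (adjusted p of up to 0.056). Ncl and Nhp2 lost it without any library but siMyc dox 2 or siGcn5 dox 1 (up to 0.112 and 0.109). Of 27 tested genes of RNA polymerases I and III, which transcribe ribosomal and transfer RNA genes, 11 were called lower and 1 higher (median -0.34). The number lower was 6 without siMyc dox 1 and 7 without siMyc no-dox 1, siMyc no-dox 2, siGcn5 no-dox 1 or siGcn5 dox 2. Polr1a, the largest subunit of RNA polymerase I, measured 8.73 and 8.82 RPKM in siMyc without dox and 8.14 and 10.6 with it, against 16.3 and 15.1 without dox and 35.4 and 38.0 with it in siGcn5, a difference of -1.10 (SE 0.16, adjusted p = 0.00299). Polr1a was not called for dox in siMyc and rose in siGcn5. Polr1b, its second largest subunit, followed at -1.41, Polr3g at -1.03 and Polr1e at -1.02, and these 4 calls held without any single library.

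For the proteins of the ribosome itself the outcome depended on the fit. None of 55 cytosolic ribosomal protein genes was called for the difference by limma or by limma voom, 5 were lower at an unadjusted p under 0.05, and the median was -0.14. With all 12 libraries in the fit 3 were called lower, without siGcn5 no-dox 2 3 and without siGcn5 dox 1 6. The smallest p belonged to Rpl3, at -0.87 (SE 0.29, adjusted p = 0.0579). Reads of these genes can match pseudogenes, so their values are uncertain. Of 36 mitochondrial ribosomal protein genes 12 were lower and 0 higher (median -0.30, 1 higher at an unadjusted p under 0.05), and limma voom called 7 lower and 0 higher. Without any 1 library but siGcn5 dox 1, 3 to 7 were lower. Mrpl22 measured 23.6 and 25.7 RPKM in siMyc without dox and 25.3 and 27.5 with it, against 29.7 and 31.6 without dox and 54.5 and 66.4 with it in siGcn5, a difference of -0.85 (SE 0.15, adjusted p = 0.00579), and Mrpl20 had one of -0.59. Of 45 translation factors and tRNA synthetases 10 were lower and 1 higher (median -0.16). Without any 1 of siMyc no-dox 1 and 2, siMyc dox 1, siGcn5 no-dox 1 and 2 or siGcn5 dox 2, 1 to 6 were lower, and without siGcn5 dox 1 16 were. Eif4e, the cap-binding protein, measured 34.0 and 34.9 RPKM in siMyc without dox and 35.1 and 38.0 with it, against 30.7 and 31.2 without dox and 49.4 and 55.5 with it in siGcn5, a difference of -0.66 (SE 0.11, adjusted p = 0.00558). All of its siGcn5 libraries with dox lay above the rest.

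Enzymes that feed nucleotide synthesis had the same direction. Of 18 serine, glycine and folate genes 10 were lower and 0 higher (median -0.66), with 11 lower and 0 higher at an unadjusted p under 0.05 and 9 lower and 0 higher by limma voom. The number lower was 3 to 6 without any 1 library but siMyc dox 2 or siGcn5 dox 1, and 4 with no filter on low values. Their median responses were 0.12 in siMyc and 0.82 in siGcn5. Gldc, the glycine decarboxylase, measured 0.238 and 0.194 RPKM in siMyc without dox and 0.276 and 0.553 with it, against 0.844 and 0.774 without dox and 6.81 and 7.84 with it in siGcn5, a difference of -1.99 (SE 0.17, adjusted p = 0.000228). It came on in siGcn5 with dox and stayed under 1 RPKM in the other groups. Gldc thus entered the test through siGcn5 with dox alone, which favours a call as lower. Of 31 purine, pyrimidine and polyamine genes 18 were lower and 1 higher (median -0.77), with median responses of 0.17 and 1.00. Gart, which carries 3 steps of purine synthesis, measured 21.7 and 19.7 RPKM in siMyc without dox and 20.2 and 29.9 with it, against 31.9 and 33.1 without dox and 88.3 and 112 with it in siGcn5, a difference of -1.34 (SE 0.25, adjusted p = 0.00714). Umps, the last enzyme of uridine monophosphate synthesis, measured 14.4 and 11.3 RPKM in siMyc without dox and 16.9 and 18.8 with it, against 9.02 and 9.12 without dox and 30.8 and 38.3 with it in siGcn5, a difference of -1.36 (SE 0.19, adjusted p = 0.0024). Both rose in siGcn5 with no overlap between its groups, and Dut, which clears deoxyuridine triphosphate, did likewise at -1.77.

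The letters CACGTG, the E-box that Myc and Max are known to bind, were looked up in promoters (250 bases before to 50 after a start, RefSeq, GRCm38.p6). They read the same on both strands. Of 32851 promoter entries of that length 7.2% held them, and of the 9956 tested genes with a promoter 11.9% had at least 1 entry that did. Promoters were matched for 76.6% of the genes tested, under the 80% needed, so a comparison of called with other genes is void. Of 42 ribosome biogenesis genes with a promoter 10 held the letters, of 27 purine, pyrimidine and polyamine genes 5, and of 16 serine, glycine and folate genes 1. The promoters with the letters that belong to the called genes of these lists with the largest differences are shown, with the letters in capitals and the bases on each side, 5′ to 3′ along the gene.
Tyms: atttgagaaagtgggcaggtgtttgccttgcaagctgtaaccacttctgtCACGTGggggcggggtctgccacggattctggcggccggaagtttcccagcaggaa
Sms: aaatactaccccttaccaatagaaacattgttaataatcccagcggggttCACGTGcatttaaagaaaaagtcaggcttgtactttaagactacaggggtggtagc
Impdh2: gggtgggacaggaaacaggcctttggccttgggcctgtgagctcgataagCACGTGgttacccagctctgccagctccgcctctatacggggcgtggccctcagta
The stretches are chr5:30073631-30073736 (minus strand) for Tyms, chrX:157492428-157492533 (minus strand) for Sms and chr9:108560276-108560381 (plus strand) for Impdh2. The letters begin 61, 196 and 110 bases before the annotated start. Impdh2, the rate-limiting enzyme of guanine nucleotide synthesis, measured 76.1 and 74.0 RPKM in siMyc without dox and 75.8 and 86.5 with it, against 99.9 and 102 without dox and 203 and 233 with it in siGcn5, a difference of -0.99 (SE 0.13, adjusted p = 0.00193). Sms, spermine synthase, measured 9.96 and 9.35 RPKM in siMyc without dox and 9.25 and 10.6 with it, against 8.18 and 9.09 without dox and 17.3 and 22.1 with it in siGcn5, a difference of -1.06 (SE 0.18, adjusted p = 0.00494). Tyms, thymidylate synthase, had one of -1.14 (SE 0.28, adjusted p = 0.0212) and lost the call without siMyc no-dox 1 or 2, siMyc dox 1 or 2 or siGcn5 no-dox 1 (adjusted p of up to 0.0687). A match of letters is a description of the sequence and not a measured site.

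Genes of DNA replication and mitosis had the most negative medians of the 28 lists. Of 40 replication genes 27 were lower and 0 higher (median -0.94), with 36 lower and 0 higher at an unadjusted p under 0.05. Of 39 mitosis and kinetochore genes 31 were lower and 0 higher (median -1.37), with 37 lower and 0 higher unadjusted. All 39 mitosis genes were higher in siMyc than in siGcn5 before dox (median 1.37), 36 rose with dox in siGcn5 and 1 in siMyc, and with dox 0 were called between the knockdowns (1 higher and 0 lower at an unadjusted p under 0.05, and 0 by limma voom). Their median dox responses were 1.03 in siGcn5 and -0.33 in siMyc, where 36 of 39 lay below 0 and 1 was called lower. The mitosis genes thus started low in siGcn5, and with dox their median was 0.03 apart. That level rested on single siGcn5 libraries: without siGcn5 dox 1 4 were called lower in siMyc with dox, and without siGcn5 dox 2 10 were called higher.

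Mcm3, a subunit of the replicative helicase, measured 24.9 and 16.6 RPKM in siMyc without dox and 17.8 and 18 with it, against 5.90 and 7.72 without dox and 16.9 and 27.4 with it in siGcn5, a difference of -1.71 (SE 0.35, adjusted p = 0.00967). Its lowest libraries were those of siGcn5 without dox, and the call held without any single library. Aurkb, the kinase of the chromosomal passenger complex, measured 9.86 and 7.87 RPKM in siMyc without dox and 5.60 and 7.31 with it, against 1.79 and 2.71 without dox and 4.96 and 11.3 with it in siGcn5, a difference of -1.82 (SE 0.44, adjusted p = 0.0193). Plk1, another mitotic kinase, measured 18.6 and 19.9 RPKM in siMyc without dox and 12.9 and 16.9 with it, against 3.48 and 8.06 without dox and 10.4 and 21.1 with it in siGcn5, a difference of -1.67 (SE 0.52, adjusted p = 0.0451). For both kinases siGcn5 without dox was the low group, and replicate 2 lay above replicate 1 in each siGcn5 group. The call of Aurkb ended without siMyc no-dox 1, siMyc dox 1 or siGcn5 no-dox 1 (adjusted p of up to 0.0706), and that of Plk1 without any library but siGcn5 no-dox 2 or siGcn5 dox 1 (up to 0.136).

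The number of mitosis genes called lower rested on single libraries, while the direction did not. It was 6 without siMyc no-dox 1 or 2, 3 and 14 without siMyc dox 1 and 2, 5 and 34 without siGcn5 no-dox 1 and 2, and 38 and 13 without siGcn5 dox 1 and 2. With no filter on low values it was 6. With single libraries left out, 38 or 39 of the 39 members had a difference below 0 and the median lay between -0.98 and -1.70. The number that rose in siGcn5 was 8 without siGcn5 no-dox 1 and 15 without siGcn5 dox 2. For replication genes the number called lower was 14 without siMyc dox 1, 15 without siMyc no-dox 1, 16 without siGcn5 no-dox 1 and 36 without siGcn5 dox 1.

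Splicing genes, on which the series is centred, split by kind. Of 53 core spliceosome genes 22 were lower and 0 higher (median -0.41), and of 49 hnRNP, SR and arginine methyltransferase genes 21 were lower and 0 higher (median -0.35). Unadjusted, 34 and 24 were lower and 0 higher, and limma voom called 20 lower in each and 0 higher. The first count was 7 to 13 without siMyc no-dox 1 or 2, siMyc dox 1, siGcn5 no-dox 1 or siGcn5 dox 2, and 33 without siGcn5 dox 1. The second was 5 to 12 without any library but siGcn5 dox 1. Snrpa1, a protein of the U2 particle, measured 47.8 and 42.9 RPKM in siMyc without dox and 44.4 and 49.2 with it, against 35.9 and 35.4 without dox and 78.7 and 87.2 with it in siGcn5, a difference of -1.15 (SE 0.13, adjusted p = 0.000785). Hnrnpa2b1, an RNA-binding regulator of splicing, measured 136 and 141 RPKM in siMyc without dox and 123 and 130.1 with it, against 126 and 122 without dox and 183 and 209 with it in siGcn5, a difference of -0.79 (SE 0.12, adjusted p = 0.00305). In both, the siGcn5 libraries with dox lay above all others. Snrpg (-1.05), Hnrnpa1 (-1.03) and Clns1a, a cofactor of Prmt5 (-0.81), were likewise called without any single library.

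Tissue-specific splicing regulators had no common direction. Of 20, 3 were higher (15.0%) and 2 lower (10.0%), near the 15.3% and 13.3% of all genes tested. Their median was 0.04 (-0.03 without siMyc dox 1). The counts were 1 higher and 0 lower without siMyc no-dox 1, siMyc no-dox 2 or siGcn5 no-dox 1, 2 and 0 without siMyc dox 1, 3 and 0 without siGcn5 no-dox 2, and 2 and 1 without siGcn5 dox 2. With all 12 libraries in the fit 4 were higher and 5 lower. Esrp2, the epithelial splicing regulator, measured 1.74 and 1.59 RPKM in siMyc without dox and 24.0 and 24.5 with it, against 2.82 and 2.31 without dox and 17.5 and 18.3 with it in siGcn5, a difference of 0.83 (SE 0.14, adjusted p = 0.00452). It rose in both knockdowns and ended highest in siMyc. Nova2 was higher at 0.81 and lost the call without siMyc no-dox 1 or 2 or siGcn5 no-dox 1 (adjusted p of up to 0.0591). Elavl2 was lower at -1.05 and lost it without any library but siMyc dox 2, siGcn5 dox 1 or siGcn5 dox 2 (up to 0.0908). Rbpms was higher at 0.58 (adjusted p = 0.0428) and lost this call without any library but siGcn5 dox 1 (up to 0.13).

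Beside 13.3% lower and 15.3% higher of all genes tested, the Myc network had 2 of 12 genes lower (16.7%) and 1 higher (8.3%). Apart from Myc itself these were 2 partners of Max that oppose Myc: Mxi1 measured 1.51 and 2.04 RPKM in siMyc without dox and 2.76 and 2.85 with it, against 0.762 and 1.14 without dox and 4.69 and 6.26 with it in siGcn5, a difference of -1.27 (SE 0.22, adjusted p = 0.00544), and Mxd1 measured 1.43 and 1.72 RPKM in siMyc without dox and 6.09 and 5.22 with it, against 1.66 and 2.18 without dox and 2.16 and 3.05 with it in siGcn5, a difference of 1.07 (SE 0.21, adjusted p = 0.00941). Mxi1 rose more in siGcn5, and Mxd1 rose in siMyc and was not called in siGcn5. Of 29 SAGA and ATAC subunits 5, the siRNA target Kat2a among them, were lower (17.2%, near the 13.3% of all genes tested) and 0 higher. Their median was -0.06, with 7 lower and 4 higher at an unadjusted p under 0.05. Limma voom also called 5 lower and 0 higher. The number lower was 3 without any library but siMyc dox 2 or siGcn5 dox 1, and 8 without siGcn5 dox 1. Besides Kat2a these included Taf5l, which measured 12.2 and 11.9 RPKM in siMyc without dox and 10.8 and 11.6 with it, against 10.9 and 10.2 without dox and 18.1 and 22.0 with it in siGcn5, a difference of -0.96 (SE 0.15, adjusted p = 0.00343). Yeats2, a subunit of ATAC, fell in siMyc and rose in siGcn5, with a difference of -0.68 (SE 0.11, adjusted p = 0.0049).

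Metabolic and stress genes went both ways. Of 24 glycolysis genes 9 were lower (5 without siMyc dox 1) and 3 higher (median -0.37). Ldha, lactate dehydrogenase, measured 383 and 419 RPKM in siMyc without dox and 291 and 343 with it, against 357 and 411 without dox and 648 and 785 with it in siGcn5, a difference of -1.24 (SE 0.18, adjusted p = 0.00287). Pfkfb4, a regulator of the pathway, measured 7.28 and 5.58 RPKM in siMyc without dox and 39.8 and 34.8 with it, against 3.53 and 3.10 without dox and 8.68 and 6.77 with it in siGcn5, a difference of 1.36 (SE 0.21, adjusted p = 0.00353). The lactate exporter Slc16a3 was also higher, at 0.83, and Pgk1 lower, at -1.08. Of 23 sterol genes 5 were higher and 0 lower (median 0.35, with 7 higher and 0 lower at an unadjusted p under 0.05), and limma voom also called 5 higher and 0 lower, and without siMyc no-dox 1 3 were higher. The median was 0.56 without siGcn5 no-dox 1, 0.21 without siGcn5 no-dox 2 and 0.22 without siGcn5 dox 1. Pmvk, the phosphomevalonate kinase of sterol synthesis, measured 11.8 and 14.4 RPKM in siMyc without dox and 38.5 and 36.9 with it, against 11.7 and 13.5 without dox and 16.9 and 15.7 with it in siGcn5, a difference of 1.11 (SE 0.16, adjusted p = 0.00231). It rose in both knockdowns, and its siMyc libraries with dox lay above all others.

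Of 23 genes of the integrated stress response 6 were higher and 1 lower (median 0.33), and 2 or 3 were higher without siMyc no-dox 1, siMyc dox 1 or siGcn5 no-dox 1 (median 0.21 without siMyc dox 1 and 0.20 without siGcn5 no-dox 1). Nupr1, a stress-induced chromatin protein, measured 181 and 177 RPKM in siMyc without dox and 291 and 296 with it, against 482 and 476 without dox and 302 and 278 with it in siGcn5, a difference of 1.43 (SE 0.10, adjusted p = 0.000125). It rose in siMyc and fell in siGcn5, and the knockdowns ended near the same level. Of 32 p53 targets and cell cycle inhibitors 4 were higher and 4 lower (12.5% each, near the 15.3% and 13.3% of all genes tested). Their median was -0.04, and above 0 without siMyc no-dox 2, siMyc dox 1 or siGcn5 dox 1. Without any 1 library but siGcn5 dox 1, 0 to 2 were lower. Cdkn1a, the inhibitor p21, measured 122 and 126 RPKM in siMyc without dox and 241 and 250.0 with it, against 464 and 393 without dox and 506 and 465 with it in siGcn5, a difference of 0.79 (SE 0.13, adjusted p = 0.00504). It rose in siMyc from a level under that of siGcn5. Cdkn1c, the inhibitor p57, had a difference of 1.28 (SE 0.27, adjusted p = 0.012). Among 28 immediate early and AP-1 genes 3 were higher (6 without siGcn5 dox 1) and 2 lower (4 without siGcn5 no-dox 2 or siGcn5 dox 2), with a median of -0.08 that was above 0 without siMyc no-dox 1, siMyc dox 2 or siGcn5 dox 1. Fosl1 measured 10.5 and 10.6 RPKM in siMyc without dox and 12.0 and 12.8 with it, against 7.48 and 7.34 without dox and 24.7 and 25.6 with it in siGcn5, a difference of -1.43 (SE 0.11, adjusted p = 0.00016), and Junb one of 1.04 (SE 0.22, adjusted p = 0.0108). Fosl1 rose in siGcn5 and Junb in siMyc. The shares of this list, 10.7% higher and 7.1% lower, were under those of all genes tested (15.3% and 13.3%).

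Mesenchymal genes fell in both knockdowns with little common difference. Beside 15.3% higher and 13.3% lower of all genes tested, collagen and matrix genes had 11.6% and 7.0%. Mesenchymal regulators and receptors had 16.2% and 10.8%. Of 43 collagen and matrix genes 35 fell with dox in siMyc and 33 in siGcn5, and the difference was higher for 5, lower for 3 and had a median of -0.11. The number higher was 3 without siMyc no-dox 2 or siMyc dox 1, and the number lower was 1 without siGcn5 no-dox 1, 5 without siMyc no-dox 1 or siGcn5 no-dox 2 and 8 without siGcn5 dox 2. Of 37 mesenchymal regulators and receptors 28 fell in each, with 6 higher (3 without siMyc no-dox 1 or siMyc dox 1), 4 lower (8 without siGcn5 dox 2) and a median of -0.10 (0.04 without siGcn5 dox 1). Tgfbr2, a receptor of TGF-beta, measured 26.7 and 25.8 RPKM in siMyc without dox and 61.9 and 64.9 with it, against 18.6 and 18.3 without dox and 18.2 and 16.8 with it in siGcn5, a difference of 1.31 (SE 0.10, adjusted p = 0.000194). It rose in siMyc and did not change by the test in siGcn5. Pdgfrb, the receptor of platelet-derived growth factor, measured 74.7 and 71.8 RPKM in siMyc without dox and 17.0 and 16.9 with it, against 69.1 and 67.6 without dox and 31.9 and 25.0 with it in siGcn5, a difference of -0.80 (SE 0.15, adjusted p = 0.00775), and fell in both. Sparc, a matrix glycoprotein, had a difference of 1.00 (SE 0.14, adjusted p = 0.00208) and Timp3, an inhibitor of matrix proteases, one of 1.33 (SE 0.17, adjusted p = 0.00145), each with a rise in siMyc and a fall in siGcn5. Col6a1 had the reverse sign at -1.31 (SE 0.24, adjusted p = 0.00679), and Dcn (decorin), which rose in both, one of 0.91. Contractile genes were higher for 3 of 23 (13.0%, near the 15.3% of all genes tested) and lower for 0 (median 0.14), also by limma voom. At an unadjusted p under 0.05 4 were higher and 0 lower, and Acta1 led at 1.07. Without any 1 library but siMyc dox 2, siGcn5 no-dox 2 or siGcn5 dox 1, 1 was higher, without siGcn5 dox 1 5 were, and without siGcn5 dox 2 the median was -0.03.

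Most epithelial genes tested rose in both knockdowns, and more of them were called higher than lower in siMyc for the difference. Of 14 keratins 9 were higher and 1 lower (median 1.08), of 25 epidermal differentiation genes 11 and 4 (median 0.56), and of 25 epithelial adhesion genes and regulators 12 and 3 (median 0.83). In siMyc 12 keratins, 24 epidermal and 23 adhesion genes rose, and in siGcn5 11, 25 and 21. Median dox responses in siMyc and siGcn5 were 4.70 and 3.22 for keratins, 3.50 and 2.70 for epidermal genes, and 2.26 and 1.36 for adhesion genes. Leaving out single libraries kept the numbers called higher at 8 to 9, 10 to 12 and 11 to 14. The number of adhesion genes called lower was 1 without siMyc no-dox 1 or 2, siMyc dox 2, siGcn5 no-dox 2 or siGcn5 dox 2, and 2 keratins were lower without siMyc no-dox 2, siMyc dox 2 or siGcn5 dox 1. Tested were 14 of 18 keratins, 25 of 36 epidermal and 25 of 43 adhesion genes, which leaves out those under 1 RPKM in nearly all libraries. A gene that is on only with dox could enter through the group where it was high. Counts of these lists under limma voom, where values near 0 carry less weight, are not given here. Of 10 kallikrein-related peptidases, some of them in the epidermal list, limma called 9 higher and limma voom 2.

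Krt8, the partner of Krt18, measured 0.772 and 0.660 RPKM in siMyc without dox and 212 and 197 with it, against 4.41 and 4.51 without dox and 87.7 and 110.4 with it in siGcn5, a difference of 2.72 (SE 0.16, adjusted p = 5.4e-05). Krt16, a keratin of activated epidermis, measured 0.0409 and 0 RPKM in siMyc without dox and 806 and 783 with it, against 0.0722 and 0.0222 without dox and 217 and 241 with it in siGcn5, a difference of 1.83 (SE 0.11, adjusted p = 6.58e-05). Each rose in both knockdowns from under 5 RPKM and reached the highest level in siMyc with dox. Cnfn, of the cornified envelope, measured 0.133 and 0 RPKM in siMyc without dox and 1081 and 978 with it, against 0.134 and 0.176 without dox and 95.7 and 112 with it in siGcn5, a difference of 3.42 (SE 0.15, adjusted p = 1.69e-05). Cdsn, which helps join the cornified cells of the skin, measured 1.48 and 2.59 RPKM in siMyc without dox and 77.0 and 71.2 with it, against 1.40 and 2.03 without dox and 2.79 and 3.18 with it in siGcn5, a difference of 4.09 (SE 0.26, adjusted p = 6.82e-05), and Klk7, a protease of the skin surface, measured 0.0733 and 0.0528 RPKM in siMyc without dox and 23.8 and 18.7 with it, against 0.00925 and 0.0265 without dox and 0.756 and 0.972 with it in siGcn5, a difference of 3.51 (SE 0.17, adjusted p = 2.33e-05). Cdsn and Klk7 reached at most 3.18 and 0.972 RPKM in siGcn5. Among adhesion genes Itgb4, an integrin of hemidesmosomes, measured 1.15 and 0.705 RPKM in siMyc without dox and 125 and 111 with it, against 0.721 and 0.552 without dox and 27.5 and 33.6 with it in siGcn5, a difference of 1.69 (SE 0.20, adjusted p = 0.00124). F11r, a tight junction protein, measured 15.3 and 12.1 RPKM in siMyc without dox and 75.2 and 65.1 with it, against 35.7 and 26.6 without dox and 34.4 and 33.6 with it in siGcn5, a difference of 2.14 (SE 0.22, adjusted p = 0.00055), and was not called for dox in siGcn5. Members called lower included Sprr1b among epidermal genes and Krt20 among keratins, given above. Cdh1 (E-cadherin), named after its values were seen, was lower among adhesion genes and measured 0.0348 and 0.00870 RPKM in siMyc without dox and 4.97 and 5.12 with it, against 0.0146 and 0.0236 without dox and 15.9 and 19.1 with it in siGcn5, a difference of -1.61 (SE 0.15, adjusted p = 0.000353).

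**Figure D4:**
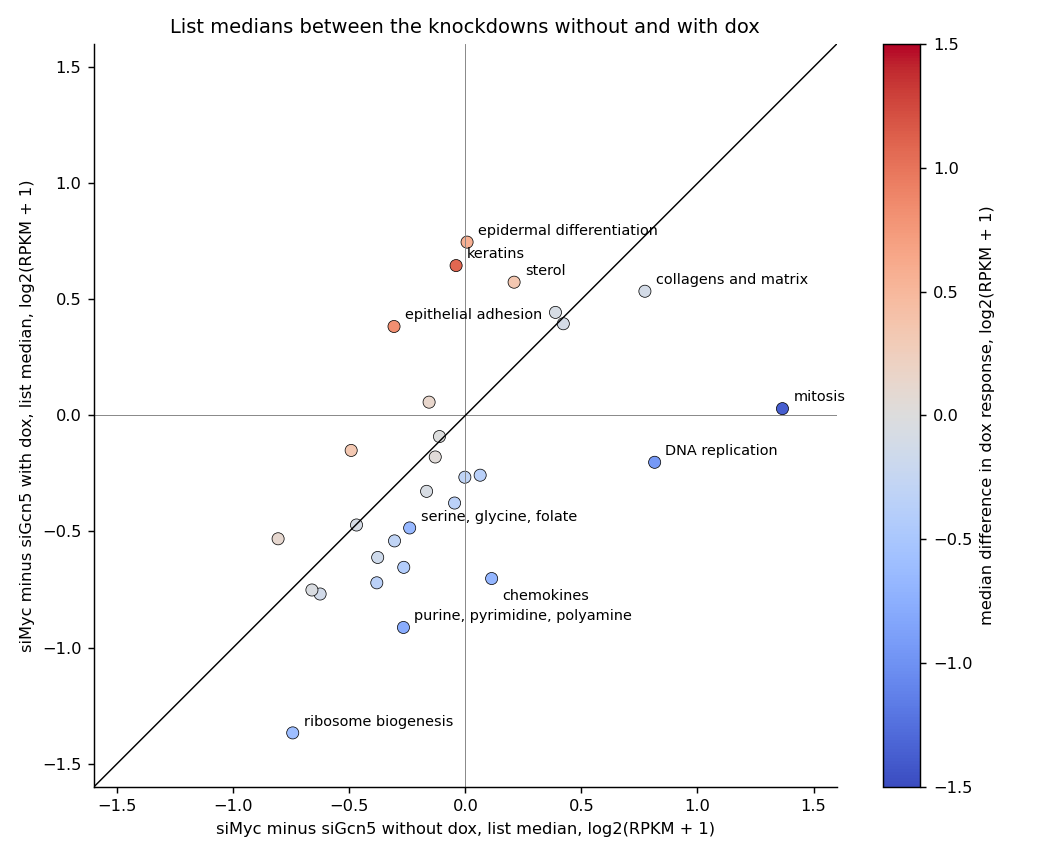
Median difference between siMyc and siGcn5 without dox (x axis) and with dox (y axis), log2(RPKM + 1), for 28 gene lists and for all genes tested. Points on the black line have equal medians without and with dox, and colour gives the median difference in dox response. Mitosis genes lie at 1.37 without dox and 0.03 with it, ribosome biogenesis genes at -0.74 and -1.37, and keratins at -0.04 and 0.65.

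The plot of list medians without and with dox separates 3 ways in which lists differed in response. Mitosis and replication genes (medians of 1.37 and 0.82 without dox, 0.03 and -0.20 with it) were apart before dox. With dox the replication median was -0.47 without siGcn5 dox 1 and 0.07 without siGcn5 dox 2. Keratins and epidermal genes had medians near 0 without dox (-0.04 and 0.01) and above it with dox (0.65 and 0.75), and epithelial adhesion genes went from -0.31 to 0.38. Members such as Krt14, Krt16 and Cnfn stood under 1 RPKM without dox in both knockdowns. For such members a difference on log2(RPKM + 1) without dox is bound to be small, and they can hold these medians near 0. Ribosome biogenesis genes were lower in siMyc at both times and more so with dox.

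Signalling and pluripotency lists added few calls. Of 19 chemokines and cytokines 5 were lower (3 without siMyc no-dox 2, siMyc dox 2 or siGcn5 no-dox 1) and 1 higher. Their median of -0.69 was -0.39 without siMyc dox 2 and -0.36 without siGcn5 dox 1. Ccl7 measured 119 and 91.6 RPKM in siMyc without dox and 53.6 and 39.7 with it, against 59.5 and 55.0 without dox and 87.0 and 65.8 with it in siGcn5, a difference of -1.56 (SE 0.26, adjusted p = 0.00488), and Il1rn, which blocks the interleukin 1 receptor, one of -1.44 (SE 0.28, adjusted p = 0.00917). None of 39 interferon-stimulated genes was called by limma or limma voom, and 3 were higher at an unadjusted p under 0.05. Zbp1 had the smallest p, at 1.19 (SE 0.41, adjusted p = 0.063). This list rested on single siGcn5 libraries. Without siGcn5 dox 1 13 were called higher and the median moved from 0.11 to 0.71, and without siGcn5 no-dox 2 2 were and it was 0.52. Without siGcn5 no-dox 1 or siGcn5 dox 2 0 were called and the median was -0.16 and -0.24. Only 10 of 30 pluripotency genes were expressed highly enough to be tested, of which 3 were lower and 1 higher (median -0.30, and -0.15, -0.19 and -0.12 without siMyc no-dox 1, siMyc dox 2 and siGcn5 dox 2). Besides Tdh these were L1td1 at -0.80, Alpl at -0.53 and Fgf4 at 0.62, whose call ended under limma voom (adjusted p = 0.157). L1td1 lost it there too (0.263) and without siMyc no-dox 1 or 2, siMyc dox 1 or siGcn5 no-dox 1 (adjusted p of up to 0.0585), and Alpl without siMyc no-dox 2 (0.0574).

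Marker genes were checked for the labelled cell type and for others. The summed RPKM of 9 fibroblast markers was 10372 to 10433 in siMyc without dox, 5611 to 5616 with dox, 9096 to 9381 in siGcn5 without dox and 4377 to 5122 with dox. The sum of 8 keratinocyte markers went from 2.01 to 3.02 up to 1169 to 1298 in siMyc and from 1.95 to 2.26 up to 409 to 473 in siGcn5, mostly Krt14, while Trp63, which defines basal keratinocytes, stayed under 0.05 RPKM in every group. In bulk libraries more cells of a type and more RNA per cell cannot be told apart. Sums of 10 endothelial markers ran from 3.88 to 27.9 and of 11 blood markers from 5.20 to 12.0. Those of 10 skeletal muscle markers ran from 8.33 to 15.4 and of 10 adipocyte markers from 16.4 to 49.3. All were far below the fibroblast sums. Cldn5, Cd3e, Pax7 and Lep, among others, were at or near 0, while other members were expressed. With dox the endothelial sum rose from at most 6.245 to at least 26.5 in siMyc. In siGcn5 it rose from at most 4.08 to at least 13.8. Esam averaged 18.1 RPKM and Cd68 6.79 in siMyc with dox, and Tek 8.74 in siGcn5 with dox. Fabp4 averaged 22.4, Pparg 15.75 and Des 13.3 RPKM in siGcn5 without dox. Neural markers (24.3 to 192, 9 of 10 found) were carried by Nes and Tubb3, which other cells express. The part of other cell types in the differences was not tested.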

How the data were processed

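RNA of mouse 2o 1B MEFs was sequenced after rRNA removal with a stranded total RNA kit, per the labels' protocols. The authors deposited RPKM values per gene for each library. The submitters' processing notes name Bowtie 0.12.8, TopHat2 2.0.9, HTSeq, edgeR, affy and the build mm9, without saying what each was used for. Near-identical or overlapping genes may share or lose reads in such counting.

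The 8 siMyc and siGcn5 libraries, 4 groups of 2, were fitted together with limma 3.58.1 (R 4.3.3, trend) on log2(RPKM + 1), with 4 residual and 4.01 prior degrees of freedom. Genes with at least 1 RPKM in 2 or more of the 8 libraries were tested, and a Benjamini-Hochberg adjusted p under 0.05 was called. The fit was tested on simulated data. Libraries of the control siRNA entered only an alternative fit.

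The rule for named genes took Kat2a, Myc and the factors Klf4, Pou5f1 and Sox2; up to 12 each way with the largest differences, responses that did not overlap and a group mean of at least 2 RPKM; up to 6 each way called for dox in opposite directions; and, from each list, at most 4 members that were called or else the one with the smallest p. Members and lists were chosen with earlier results of these data known. Of 958 list entries 953 were found and 866 tested. The values of 1 named gene are not reported here.

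Alternatives were another pseudocount (0.1), no filter, a mean of at least 5 RPKM, median-ratio scaling, quantile normalization, all 12 libraries, a replicate block, single libraries left out, and limma voom on recovered reads. Whole reads were recovered from the deposited RPKM values for 100% of the 20788 genes above 0, within 0.05 reads. Miscounted or shared reads cannot be seen in RPKM. Python 3.11.15, pandas 2.3.3, numpy 2.4.6 and matplotlib 3.10.9 were used.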

Additional observations from a re-analysis of the deposited data

Results flagged for a closer look

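In 19 of the named genes dox moved siMyc and siGcn5 in opposite directions, each response being called by limma and the difference between them, which was tested directly, being called too. In 11 of them dox raised siMyc and lowered siGcn5. The differences were 4.60 for Mir335, 4.41 for its host gene Mest, 2.81 for Krt18, 2.35 for Igfbp3, 2.30 for 4632428N05Rik, 2.09 for Socs3, 1.43 for Nupr1, 1.33 for Timp3, 1.28 for Cdkn1c, 1.07 for Acta1 and 1.00 for Sparc. In the other 8 dox lowered siMyc and raised siGcn5, with differences of -1.91 for Fkbp11, -1.80 for Krt20, -1.78 for Gsto1, -1.71 for Gstm1, -1.66 for Prkg2, -1.58 for Emb, -1.08 for Pgk1 and -0.68 for Yeats2. All 19 calls of the difference held in each alternative run that tested the gene. Whether the dox responses behind these calls also kept their own calls and signs in those runs was not checked. Part of each set was chosen by the naming rule for opposite responses, so the counts of 11 and 8 are partly set by it. Of all 13003 genes tested, 223 called higher (1.71%) and 58 called lower (0.446%) had dox responses called in opposite directions. With 2 libraries a group, single libraries that stand apart from their group could not be looked for.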

How the results depend on the processing

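Against 3726 genes called for the difference, 3471 were called with a pseudocount of 0.1, 3627 with no filter, 3709 with median-ratio scaling, 3827 with quantile normalization, 4578 with all 12 libraries and 3287 by limma voom, and the shared genes numbered 3414, 2875, 3571, 3527, 3687 and 3112. A mean of at least 5 RPKM tested fewer genes and left 2468 called (1305 higher), 2455 of them shared, and 3400 for dox in siMyc. With single libraries left out, 1967 to 4264 genes were called, 1168 to 2251 higher and 799 to 2013 lower, and dox was called for 3520 to 5541 in siMyc. Differences of Pou5f1 and Sox2, which were not called, changed sign: Pou5f1 was -0.01 without siMyc dox 2 and -0.13 without siGcn5 dox 1 (up to 0.41 without siGcn5 dox 2), and Sox2 -0.08 without siMyc dox 2, -0.06 without siGcn5 no-dox 1 and -0.37 without siGcn5 dox 1 (up to 0.48 without siGcn5 dox 2). For single named genes 1952 of the values from alternatives kept their direction and call, 201 lost and 8 gained it, and the cause was not tested. Replicate numbers are shared between groups, and the differences between replicates 1 and 2 correlated at 0.11 to 0.49 between groups. With only 2 numbers and no label that ties them, they were not treated as pairs. A replicate block gave 5332 calls, with all 3726 among them, and called 13 of the 55 cytosolic ribosomal protein genes lower, where the fit without it called 0 (adjusted p of Rpl3 0.0024 by limma). With 2 libraries a group and 65.5 to 188 M gene reads in each, smaller differences may not have been detectable.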

Other observations

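Some gene families, which share members such as Klk7 and Fgf4 with the lists, were chosen after their values were seen. Their counts stand beside 15.3% higher and 13.3% lower of all genes tested. Among the kallikrein-related peptidases, secreted proteases of the skin, 9 of 10 tested were higher in siMyc for the difference and 0 lower (median 1.44). Klk7, Klk9, Klk12 and Klk13 had a mean of 1 RPKM or more only in siMyc with dox. They entered the test through that group, which favours a call as higher. Klk14 measured 2.81 and 2.41 RPKM in siMyc without dox and 23.2 and 29.9 with it, against 5.72 and 6.12 without dox and 8.77 and 7.28 with it in siGcn5, a difference of 2.54 (SE 0.20, adjusted p = 0.000175). With limma voom on recovered reads 2 were higher and 0 lower. Secreted Wnt ligands went both ways, with 3 of 10 higher and 2 lower (1 lower without siMyc no-dox 1 or 2, siMyc dox 1 or 2 or siGcn5 no-dox 1, and 2 higher without each of these or siGcn5 no-dox 2). Limma voom on recovered reads called 1 higher and 3 lower. Wnt7a measured 0.0463 and 0.0266 RPKM in siMyc without dox and 57.5 and 49.3 with it, against 0.0279 and 0.0109 without dox and 6.44 and 7.29 with it in siGcn5, a difference of 2.76 (SE 0.15, adjusted p = 4.03e-05), and Wnt10a one of -1.56 (SE 0.24, adjusted p = 0.00317). With limma voom 1 Wnt gene was higher and 3 were lower.

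Of 9 fibroblast growth factors 4 were higher and 3 lower (3 and 3 by limma voom). Among the higher ones Fgf3, Fgf4 and Fgf22 had a mean of 1 RPKM or more only in siMyc with dox, through which they entered the test. Fgf18 measured 2.22 and 1.51 RPKM in siMyc without dox and 21.9 and 21.6 with it, against 4.05 and 2.53 without dox and 5.17 and 4.68 with it in siGcn5, a difference of 2.51 (SE 0.25, adjusted p = 0.000553). Fgf7, a ligand that mesenchymal cells send to epithelium, measured 19.7 and 25.3 RPKM in siMyc without dox and 6.83 and 5.77 with it, against 4.91 and 8.17 without dox and 5.94 and 5.56 with it in siGcn5, a difference of -1.55 (SE 0.29, adjusted p = 0.00722). Of 6 IGF binding proteins 4 were higher and 1 lower, also by limma voom. Igfbp5, the lower one, measured 32.7 and 40.8 RPKM in siMyc without dox and 11.3 and 11.3 with it, against 6.74 and 10.3 without dox and 6.49 and 6.04 with it in siGcn5, a difference of -1.25 (SE 0.24, adjusted p = 0.00889). Hox genes, which keep the positional identity of fibroblasts, had 0 of 29 called by limma, 0 at an unadjusted p under 0.05 and 0 by limma voom. Their differences ran from -0.31 to 0.40 with a median of -0.03. A replicate block called 2 higher and 0 lower.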
